A study of Mus musculus with 8 samples.

Results

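The transcription factor NRF2, its inhibitor KEAP1 and 8 antioxidant genes that NRF2 is known to activate were followed in bone-marrow-derived macrophages (BMDMs, Mϕ) that had or had not taken up apoptotic cells and had or had not been stimulated with LPS/IFNγ. The 10 genes were found by matching the Ensembl identifiers of the expression table to the symbols Nfe2l2, Keap1, Hmox1, Nqo1, Gclm, Gclc, Slc7a11, Txnrd1, Srxn1 and Gsr in the GENCODE annotation, so that they are 10 of the 55359 genes in the table. The matching used no measured value, but the genes were chosen with earlier results of these data known. BMDMs were grown from bone marrow of adult C57BL/6 mice of both sexes with M-CSF and GM-CSF at 20 ng/mL each. The growth protocol gives 7 days for this, whereas the treatment protocol and the study's methods give 6 days. Naïve Mϕ received no apoptotic cells. For efferocytosis, the uptake of dying cells by phagocytes, BMDMs were kept for 16 h with dying NIH-3T3 CA fibroblasts, at 5 apoptotic cells per Mϕ. These fibroblasts carry an activatable caspase-8 and die when it is dimerized, here with 10 nM dimerizer, which stayed in the co-culture. The labels and the methods do not state whether naïve Mϕ also received dimerizer. The 4 groups were Ctrl (naïve, unstimulated), LPS (naïve, given LPS at 100 ng/mL plus IFNγ at 100 U/mL, over 6 h), Eff (efferocytic, unstimulated) and LPSEff (efferocytic, then stimulated like LPS), with n = 2 samples each. LPS and IFNγ were always given together, and CD45+ cells were sorted with magnetic beads after the co-culture. Nothing in the labels says that the 2 samples of a group came from separate animals or cultures, so that the p-values measure the spread between these samples, which may be technical.

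NRF2 (encoded by Nfe2l2) is made continuously and destroyed continuously in resting cells, because KEAP1 presents it to a CUL3 ubiquitin ligase. Oxidants and electrophiles react with cysteines of KEAP1, NRF2 then accumulates, pairs with a small MAF protein and binds antioxidant response elements near its target genes. NRF2 is therefore controlled mainly as a protein, and mRNA levels of its targets are a common readout of its activity. In Mϕ, the pathway is known for restraining inflammatory gene expression and for handling the haem, iron, lipid and oxidants that come with phagocytosis, and Hmox1 and Slc7a11 also answer to other factors such as BACH1 and ATF4.

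All values are normalized counts, read counts divided by 1 size factor per sample. The depth was between 3481288 and 12020918 reads per sample, and 1 of the 2 Ctrl samples was the shallowest. At these depths, 3 reads correspond to 1.73 to 5.71 normalized counts, while the lowest value of any of the 10 genes rested on 43 reads and the highest on 33063. The CD45+ label was checked against 12 macrophage markers. Their summed level was 88452 to 142230 normalized counts in all samples, and none of them was at 0 in a group. Most of this sum was Lyz2, at 54327 to 103975. Ptprc, which encodes CD45, had 3669 and 5564 in Ctrl, 7001 and 10958 for LPS, 2526 and 3968 for Eff, and 5185 and 10842 for LPSEff. Of 18 fibroblast markers, the summed level was 265 to 489 normalized counts in Ctrl, 1111 to 1129 in LPS, 1832 to 3462 in Eff and 4805 to 5307 in LPSEff, and none was at 0 in both samples of a group. These values accompany each comparison between efferocytic and naïve Mϕ, and the part of fibroblast RNA in them was not tested. In such bulk samples, fewer cells of a type and less RNA per cell cannot be told apart.

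To show the sequence context of the genes, the bases upstream of the annotated start of each gene's main transcript were read. The genome was GRCm39 (mm39, the build of the deposited data). Both strands were searched for 2 patterns modelled on the antioxidant response element, here called the core motif TGANNNNGCA and the extended motif TGANTCAGC. The core motif leaves all bases between TGA and GCA free, so that a match need not be a full antioxidant response element. The 2 motifs can overlap, since TGANTCAGC followed by A also matches the core. The extended motif was shortened to 9 letters after the Srxn1 promoter had been seen, so that its matches are a description. Within 300 bases upstream, 5 of the 10 genes (Nfe2l2, Keap1, Slc7a11, Txnrd1 and Srxn1) held the core motif, against 11.7% of all 21767 protein-coding genes and 10.8% of the 12495 protein-coding genes that were tested. Read on the strand of the match, the base after TGA was A in Nfe2l2, Keap1 and Srxn1, T in Slc7a11 and C in Txnrd1. Within the same 300 bases, only Srxn1 of the 10 held the extended motif, which 1.07% of protein-coding genes did. Within 5000 bases upstream, 4 of the 10 (Nfe2l2, Hmox1, Gclc and Srxn1) held the extended motif, against 17.8% of protein-coding genes, and Gclc and Srxn1 held 2 copies, against 2.41%. A match is a description of letters and not a site of binding, and a window without a match says only that these letters are not in it. The promoters of Srxn1, Slc7a11 and Txnrd1, which held a motif close to the start, and the windows around the distal motifs of Hmox1 and Gclc are shown as examples. Nfe2l2 and Keap1 also held the core motif and rose with LPS/IFNγ, but are not shown. Nqo1, Gclm and Gsr, which held neither motif, also had changes described below. A link between motif and change was not tested. Capitals mark matches to either motif, read on either strand.
The first is the Srxn1 promoter (292 bases, chr2:151947144-151947435, plus strand), which held the core motif 58 bases and the extended motif 45 bases before the start.
Srxn1: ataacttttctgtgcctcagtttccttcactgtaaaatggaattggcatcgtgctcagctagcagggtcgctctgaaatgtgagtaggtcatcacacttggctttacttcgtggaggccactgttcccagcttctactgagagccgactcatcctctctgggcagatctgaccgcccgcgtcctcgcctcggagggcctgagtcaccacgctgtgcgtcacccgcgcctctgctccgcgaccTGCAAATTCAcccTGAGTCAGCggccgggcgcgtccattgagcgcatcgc
The Slc7a11 promoter (293 bases, chr3:50398071-50398363, minus strand) held the core motif 45 bases before the start.
Slc7a11: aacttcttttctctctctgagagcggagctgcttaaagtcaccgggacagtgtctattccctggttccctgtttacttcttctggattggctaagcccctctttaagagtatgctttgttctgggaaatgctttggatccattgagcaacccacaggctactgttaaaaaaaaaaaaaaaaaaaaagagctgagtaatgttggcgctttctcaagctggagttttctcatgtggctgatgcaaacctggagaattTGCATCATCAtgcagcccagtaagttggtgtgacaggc
The Txnrd1 promoter (300 bases, chr10:82694713-82695012, plus strand) held it 66 bases before the start.
Txnrd1: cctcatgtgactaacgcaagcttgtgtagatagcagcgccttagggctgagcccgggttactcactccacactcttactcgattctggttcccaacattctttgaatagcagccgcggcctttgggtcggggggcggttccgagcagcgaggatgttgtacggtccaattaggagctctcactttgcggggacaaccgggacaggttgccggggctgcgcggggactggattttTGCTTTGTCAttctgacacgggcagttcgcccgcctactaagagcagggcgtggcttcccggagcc
The Hmox1 window (101 bases, chr8:75816332-75816432, plus strand) lay around the extended motif 3863 bases before the start.
Hmox1: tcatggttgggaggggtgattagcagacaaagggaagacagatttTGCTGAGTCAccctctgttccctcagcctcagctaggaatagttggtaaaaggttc
Both Gclc windows (101 bases each, plus strand) lay around the extended motifs 3770 bases (chr9:77657981-77658081) and 1997 bases (chr9:77659754-77659854) before the start.
Gclc, 3770: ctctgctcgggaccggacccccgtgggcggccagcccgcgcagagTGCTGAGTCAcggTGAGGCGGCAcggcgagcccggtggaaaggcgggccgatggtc
Gclc, 1997: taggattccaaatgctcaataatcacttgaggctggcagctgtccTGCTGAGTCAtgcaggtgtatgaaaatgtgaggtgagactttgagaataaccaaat

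**Figure D1:**
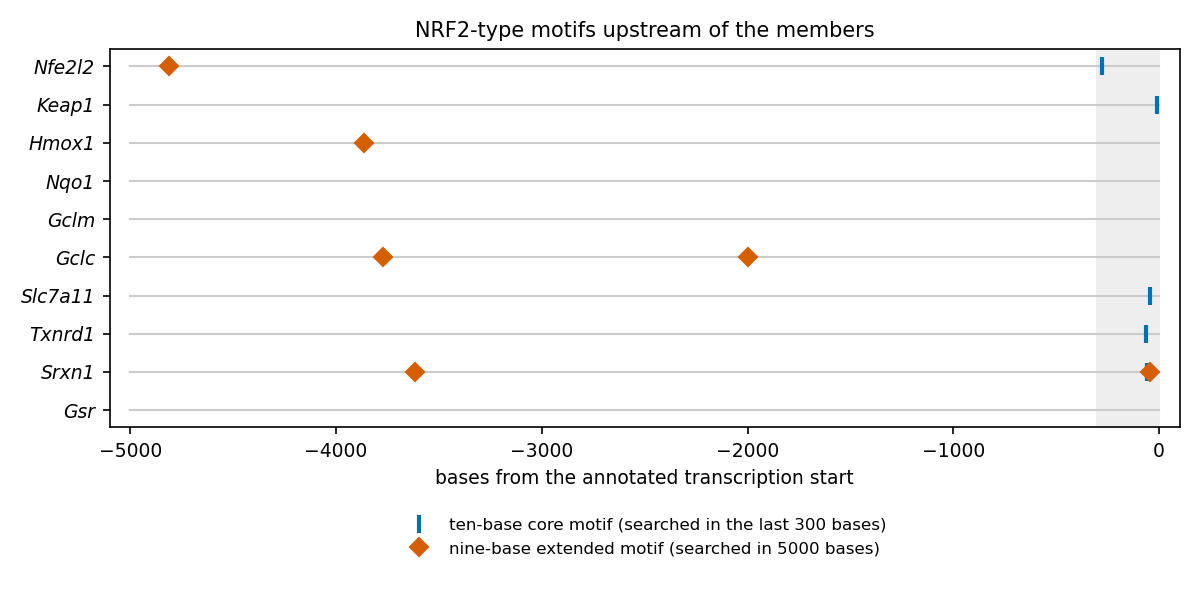
Positions of the 2 motifs upstream of the 10 genes, with the distance in bases from the annotated transcription start on the horizontal axis and 1 line per gene. Blue bars mark the core motif, searched in the last 300 bases (grey), and orange diamonds mark the extended motif, searched in 5000 bases; Srxn1 has both next to its start, and Nqo1, Gclm and Gsr have neither.

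Levels were compared between the genes after division by exonic length (normalized counts per kb of exon). Hmox1, the inducible haem oxygenase, had the highest level per kb in every group, from 497 ± 34.7 in Ctrl (SD, n = 2) to 10647 ± 5989 in LPSEff. In Ctrl, it was followed by Txnrd1 (209), Nfe2l2 (187), Keap1 (124), Gsr (120), Srxn1 (60.3), Gclm (52.7), Slc7a11 (48.6), Gclc (48.1) and Nqo1 (35.8). The ranges of Txnrd1 and Nfe2l2, of Keap1 and Gsr, and of each neighbouring pair from Srxn1 down to Nqo1 overlapped. In LPSEff, the order was Hmox1, Txnrd1 (1390), Slc7a11 (1180), Srxn1 (508), Gsr (352), Nfe2l2 (301), Keap1 (298), Gclm (214), Gclc (180) and Nqo1 (124). There, the neighbours whose ranges overlapped were Txnrd1 and Slc7a11, Gsr and Nfe2l2, and Nfe2l2 and Keap1. Slc7a11 thus stood eighth of 10 in Ctrl, and its level per kb was 697 in LPS and 115 in Eff.

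**Figure D2:**
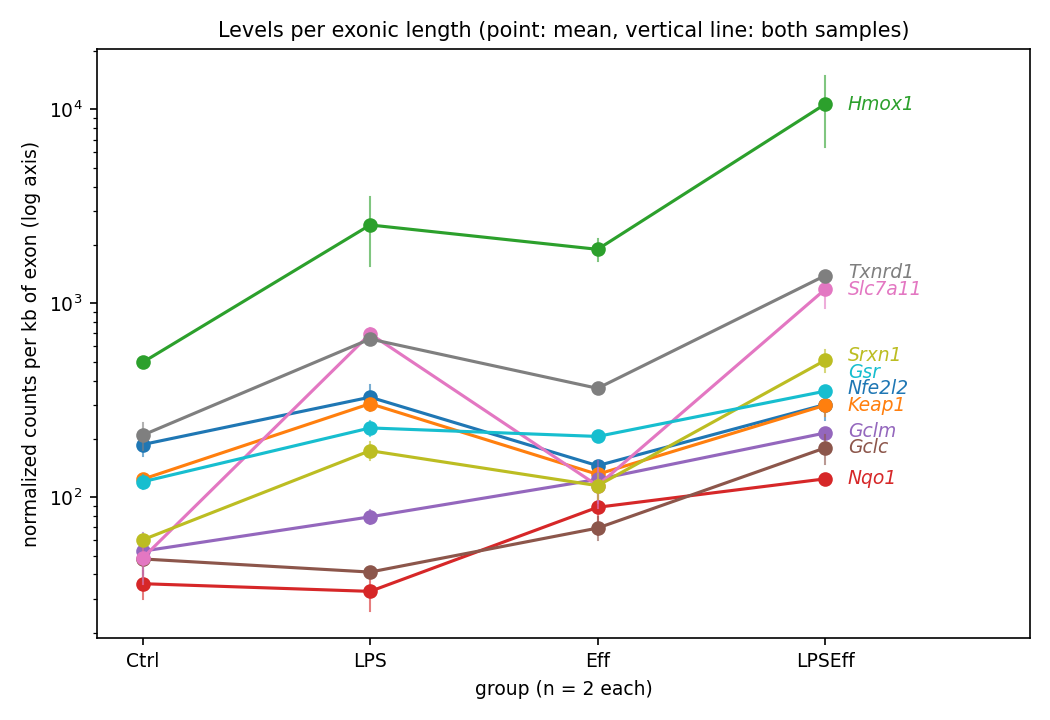
Levels of the 10 genes per exonic length in the 4 groups (log axis, normalized counts per kb of exon). Points are means of n = 2 samples, vertical lines join both samples, and the lines between groups only help to follow a gene; Hmox1 lies above the other genes in all groups, and Nqo1 lies lowest in LPSEff.

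The study asked how efferocytosis changes the response of Mϕ to inflammatory stimulation, which gives 4 contrasts. LPS/IFNγ was compared in naïve Mϕ (LPS vs Ctrl) and in efferocytic Mϕ (LPSEff vs Eff). Efferocytosis was compared without stimulation (Eff vs Ctrl) and with it (LPSEff vs LPS). The contrasts share samples in pairs (LPS vs Ctrl and Eff vs Ctrl share Ctrl, for example), so that they are set side by side here and not correlated. Fold changes are differences of log2(normalized count + 1), and p-values come from limma fitted to the 16309 genes whose mean was 10 normalized counts or more, adjusted over these genes by Benjamini-Hochberg. A gene was called at an adjusted p under 0.05. All 10 genes passed the filter.

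LPS/IFNγ raised most of the 10 genes in both kinds of Mϕ. In naïve Mϕ, 7 of the 10 genes rose and none fell, where 24.0% of all tested genes were called in either direction and 12.4% were higher. In efferocytic Mϕ, 8 rose and none fell, against 19.7% of genes called and 10.7% higher. Both stimulated samples lay above both unstimulated ones for 8 genes in naïve and 10 in efferocytic Mϕ, where 28.4% and 29.5% of all tested genes did so. The same 7 genes were higher in both contrasts (Nfe2l2, Keap1, Hmox1, Slc7a11, Txnrd1, Srxn1 and Gsr), which was the case for 9.17% of genes, and Gclc rose in efferocytic Mϕ. The 10 genes had a median log2 fold change of 1.11 (naïve) and 1.27 (efferocytic), compared with −0.011 and 0.0051 for all tested genes. Rescaling all samples to equal totals moved the median of all genes to −0.40 and −0.44, left 5 and 6 of the 10 genes called, all higher, and moved the split of all calls from 2015 higher and 1895 lower to 1420 and 4315 in naïve Mϕ (from 1753 and 1460 to 1216 and 4362 in efferocytic Mϕ). With the replicate number as a block, 8 and 9 of the 10 were called higher, against 41.2% and 37.0% of genes called. Without the first Ctrl sample, fewer of the 10 genes were called in naïve Mϕ. The same held in efferocytic Mϕ without either Eff sample or without the first LPSEff sample. Calls over all tested genes fell in these fits as well, so that the loss is not particular to the 10 genes.

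With efferocytosis, the 8 target genes had higher values in both states and Nfe2l2 and Keap1 did not, and how many genes passed the test depended on whether the replicate number was a block. In Eff vs Ctrl, the 2 groups did not overlap and Eff was higher for 8 of the 10 genes, where this was so for 16.3% of all tested genes, but limma called none of the 10 (0.251% of genes called). At an unadjusted p under 0.05, 7 of the 10 passed, against 6.13% of genes. edgeR called 0 and DESeq2 called 5 of the 10 on the recovered reads (0.0858% and 1.35% of genes). With the replicate block, limma called 7 higher (Hmox1, Nqo1, Gclm, Slc7a11, Txnrd1, Srxn1 and Gsr), against 2.67% of genes called and 1.70% higher, and edgeR and DESeq2 with the block called 7 each (2.63% and 3.16% of genes). In LPSEff vs LPS, limma called 3 higher (Nqo1, Gclc and Srxn1), against 0.773% of genes called and 0.730% higher, and the groups did not overlap for the 8 target genes (19.3% of genes). At an unadjusted p under 0.05, 7 passed (10.3% of genes), edgeR called 3 (0.773% of genes) and DESeq2 called 6 (2.26% of genes). The block raised the count to 8, which are the 8 target genes, against 6.97% of genes called and 4.32% higher. The calls without the block rested on every sample of this contrast. Calls over all tested genes also fell when any 1 of the LPS or LPSEff samples was left out, so that this loss is not particular to the 10 genes. With single samples left out, the log2 fold changes ranged from 1.64 to 2.25 for Nqo1, from 1.86 to 2.35 for Gclc and from 1.35 to 1.73 for Srxn1. The 7 genes called with the block in Eff vs Ctrl were higher in both efferocytosis contrasts, as were 1.26% of genes. The median log2 fold change of the 10 genes was 0.87 without and 1.26 with stimulation, and that of all genes was −0.013 and −0.0025. Fibroblast markers rose in the same contrasts (6 of 15 tested markers were called in each, with median log2 fold changes of 3.16 and 3.28), and with the block 11 and 9 were called. Of 6 tested dendritic cell markers, all had log2 fold changes below 0 in both contrasts (medians −0.71 and −0.81), limma, edgeR and DESeq2 called 0, 1 and 2 had an unadjusted p under 0.05, and with the block 2 were lower in each. The part of these cells in the result was not tested.

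The group with both treatments had the highest levels. Both LPSEff samples lay above all 6 other samples for the 8 target genes, against 6.77% of all tested genes. The summed level of the 10 genes was 6436 to 7676 normalized counts in Ctrl, 12676 to 14165 in Eff, 26606 to 28659 in LPS and 56200 to 65059 in LPSEff. The ranges of the 4 groups did not overlap, and Hmox1 and Slc7a11 made up most of the sum in the stimulated groups.

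**Figure D3:**
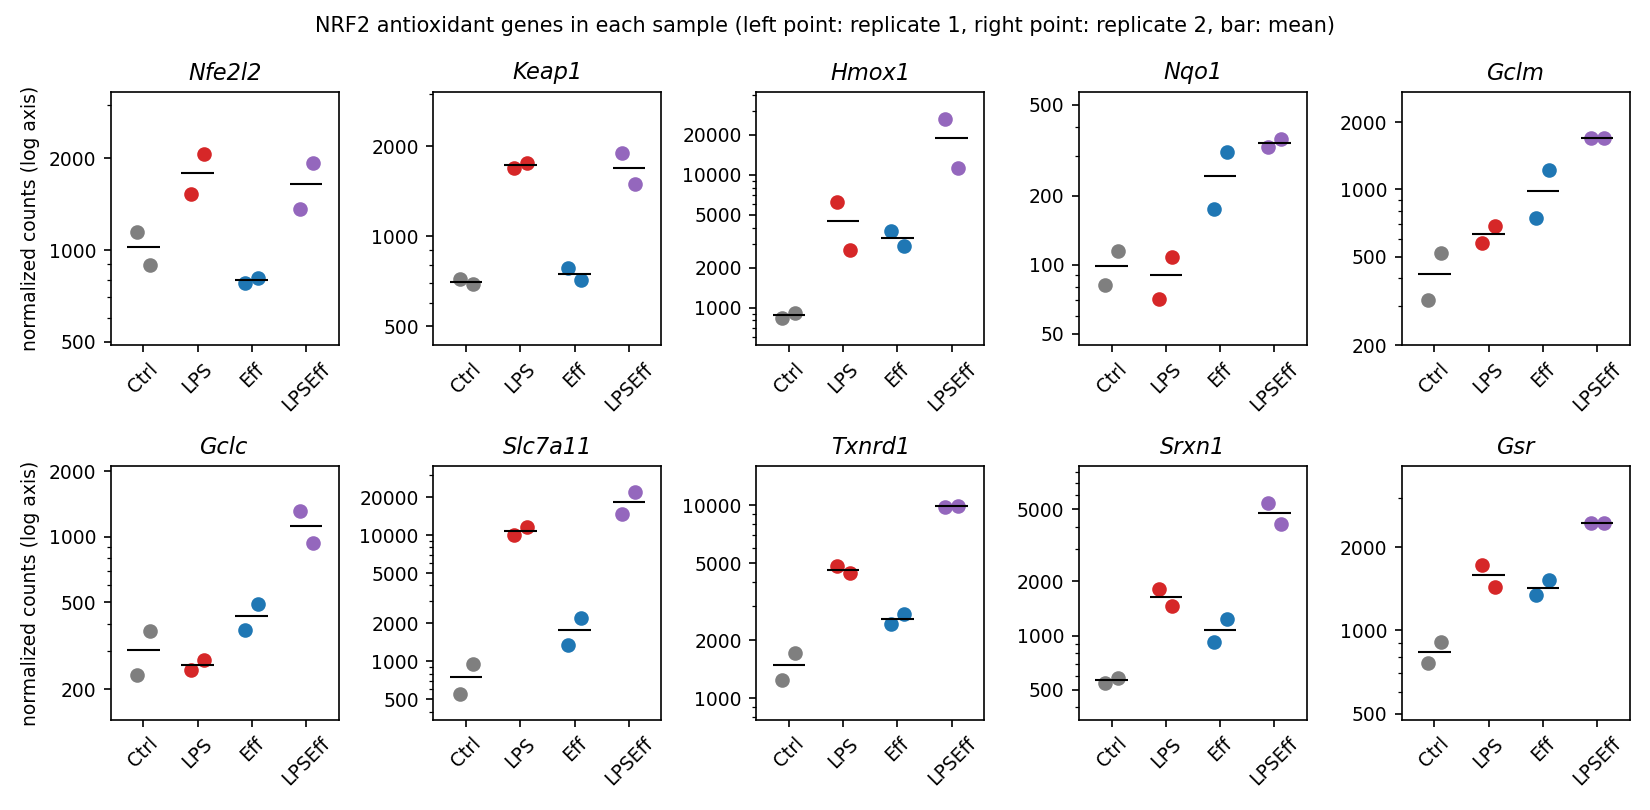
Normalized counts of the 10 genes in each of the 8 samples (log axis, 1 panel per gene; left and right points are replicates 1 and 2, bars are means of n = 2). The 8 target genes are highest in LPSEff, whereas Nfe2l2 and Keap1 separate the stimulated from the unstimulated groups.

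**Figure D4:**
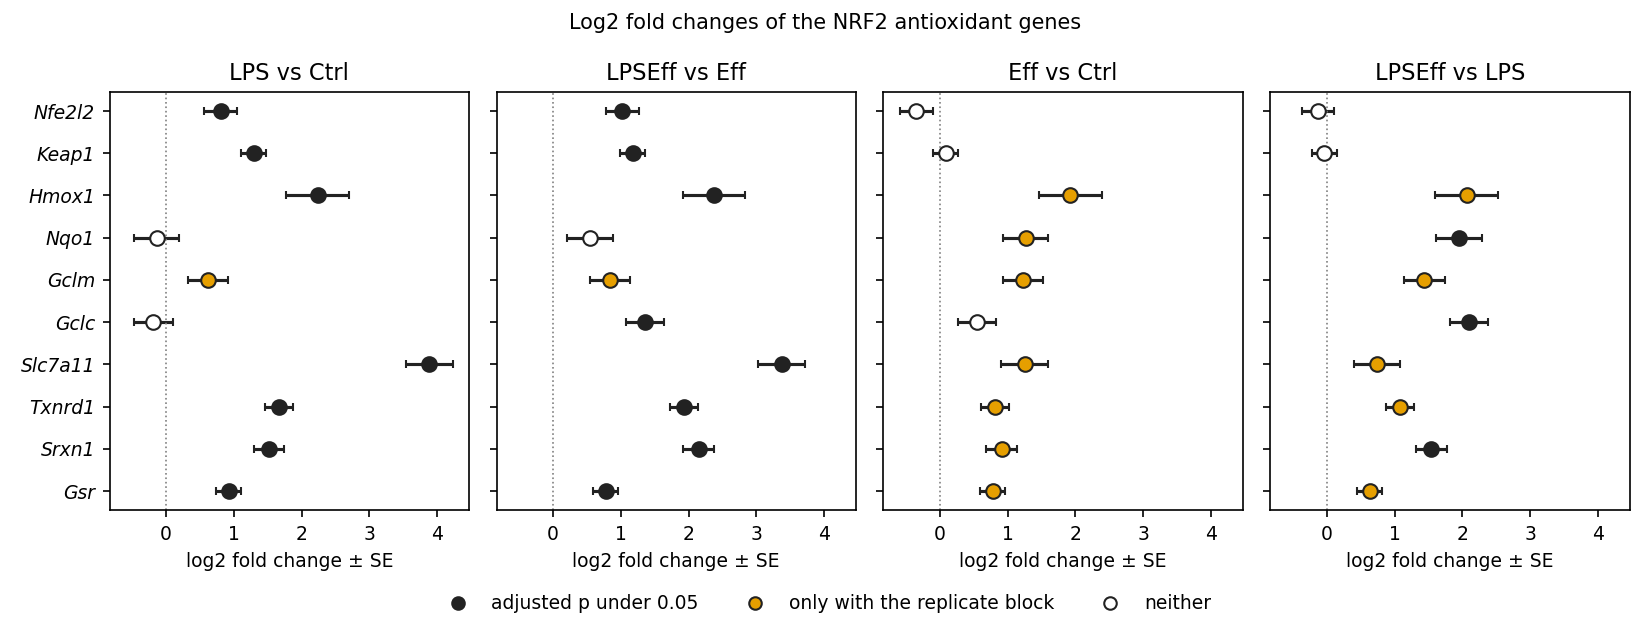
Log2 fold changes of the 10 genes with their standard errors (limma, n = 2 per group) in the 4 contrasts. Black points are called at an adjusted p under 0.05, orange points are called only with the replicate block, and white points in neither fit; in Eff vs Ctrl no gene is called without the block and 7 are called with it.

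Nfe2l2 (ENSMUSG00000015839, chr2:75504739-75534985, minus strand) encodes NRF2 itself. It had 1146 and 896 normalized counts in Ctrl, 1522 and 2064 for LPS, 779 and 811 for Eff, and 1359 and 1925 for LPSEff. All 4 stimulated samples were above all 4 unstimulated samples, and Eff was below Ctrl without overlap, as in 17.8% of genes. With LPS/IFNγ it rose by a log2 fold change of 0.81 ± 0.24 (SE) in naïve Mϕ (adjusted p = 0.0445, limma) and of 1.02 ± 0.24 in efferocytic Mϕ (adjusted p = 0.0203). The first of these calls was lost with equal totals (log2 fold change 0.40, adjusted p = 0.182) and over all 20 alternatives its adjusted p ranged from 0.00123 to 0.220. With equal totals, the second was 0.57 (adjusted p = 0.0720, with a range from 2.28e-05 to 0.117 over the alternatives). The efferocytosis differences were −0.35 ± 0.24 without and −0.13 ± 0.24 with stimulation, and neither was called with or without the block (adjusted p = 0.999 and 0.931 without it).

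Keap1 (ENSMUSG00000003308, chr9:21141026-21150679, minus strand) encodes the sensor that hands NRF2 to degradation. Its values were 720 and 690 in Ctrl, 1693 and 1766 for LPS, 783 and 712 for Eff, and 1902 and 1492 for LPSEff. The 4 stimulated samples lay between 1492 and 1902 and the 4 unstimulated ones between 690 and 783, whereas efferocytic and naïve samples overlapped in both states. Keap1 rose 2.45-fold with LPS/IFNγ in naïve Mϕ (log2 1.29 ± 0.18, adjusted p = 0.00178, limma) and 2.26-fold in efferocytic Mϕ (log2 1.17 ± 0.18, adjusted p = 0.00331). The efferocytosis differences were 0.08 ± 0.18 and −0.04 ± 0.18 on the log2 scale. An annotated gene on the opposite strand, Gm16754, shares 620 bases of exon with Keap1, and its normalized counts were 179 and 223 in Ctrl, 491 and 567 for LPS, 216 and 231 for Eff, and 513 and 506 for LPSEff. The default mode of htseq-count counts by strand, which keeps reads of the 2 genes apart in a stranded library.

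Hmox1 (ENSMUSG00000005413, chr8:75820241-75827217, plus strand) encodes haem oxygenase 1, which splits haem into biliverdin, iron and carbon monoxide. It had 830 and 917 normalized counts in Ctrl, 6199 and 2728 for LPS, 3762 and 2922 for Eff, and 26176 and 11279 for LPSEff. Each treatment alone put both samples above Ctrl, and both together put them above all others, while in each stimulated group the first sample was more than double the second. Hmox1 rose 4.71-fold with LPS/IFNγ in naïve Mϕ (log2 2.24 ± 0.46, adjusted p = 0.00996, limma) and 5.18-fold in efferocytic Mϕ (log2 2.37 ± 0.46, adjusted p = 0.00890). Single samples moved these folds by over 1.5 times, to log2 1.64 without the first and 2.83 without the second LPS sample in naïve Mϕ, and to 1.77 without the first and 2.98 without the second LPSEff sample in efferocytic Mϕ. The first call was lost without the first Ctrl sample (adjusted p = 0.0618). The second was lost without the second Eff sample (adjusted p = 0.0551), without the first LPSEff sample (0.0526) or with quantile normalization (0.0603). The efferocytosis difference was 3.80-fold without stimulation (log2 1.92 ± 0.46, adjusted p = 0.265) and 4.18-fold with it (log2 2.06 ± 0.46, adjusted p = 0.124). With the replicate block, these adjusted p-values became 0.00562 and 0.00222 (from 1.79e-08 to 0.999 and from 1.35e-10 to 0.534 over the alternatives). With stimulation, the difference was log2 1.46 and 2.67 without the first and the second LPSEff sample, and 2.65 and 1.47 without the first and the second LPS sample. Within the replicates, the log2 difference with stimulation was 2.08 in the first and 2.05 in the second, and without stimulation it was 2.18 and 1.67. This was the gene with the largest efferocytosis difference of the 10 without stimulation.

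Nqo1 (ENSMUSG00000003849, chr8:108113835-108129934, minus strand) encodes a quinone reductase whose mRNA is often read as a marker of NRF2 activity. It had the lowest normalized counts of the 10 genes in each sample (per kb of exon, Gclc was lower in Eff, at 69.4 against 88.8), with 81.9 and 115 normalized counts in Ctrl, 71.1 and 109 for LPS, 176 and 312 for Eff, and 329 and 355 for LPSEff. The efferocytic samples were all above the naïve samples, and LPS and Ctrl overlapped. In the stimulated state, Nqo1 was 3.85-fold higher in efferocytic than in naïve samples (log2 1.95 ± 0.34, adjusted p = 0.0499, limma). This value lies at the threshold, and among the alternatives the adjusted p ranged from 3.99e-10 to 0.317. In the unstimulated state, the difference was 2.40-fold (log2 1.26 ± 0.34, adjusted p = 0.363, and 0.00861 with the replicate block). The LPS/IFNγ difference was −0.14 ± 0.34 in naïve Mϕ and 0.54 ± 0.34 in efferocytic Mϕ on the log2 scale (adjusted p = 0.815 and 0.319). The naïve value changed sign when the second Ctrl sample or the first LPS sample was left out (0.10 and 0.16).

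Slc7a11 (ENSMUSG00000027737, chr3:49846975-50398070, minus strand) encodes the transport subunit of the cystine/glutamate exchanger xCT, which brings in the cystine needed for glutathione. It had 554 and 955 normalized counts in Ctrl, 9976 and 11651 for LPS, 1363 and 2203 for Eff, and 14668 and 21978 for LPSEff. The 4 groups did not overlap, and the stimulated samples were above the unstimulated ones by the widest margin of the 10 genes. With LPS/IFNγ it rose 14.8-fold in naïve Mϕ (log2 3.89 ± 0.34, adjusted p = 0.000217, limma) and 10.4-fold in efferocytic Mϕ (log2 3.37 ± 0.34, adjusted p = 0.000413). These 2 calls held under all 20 alternatives. The efferocytosis difference was 2.38-fold without stimulation (log2 1.25 ± 0.34, adjusted p = 0.378, and 0.00227 with the replicate block) and 1.67-fold with it (log2 0.74 ± 0.34, adjusted p = 0.529, and 0.0221 with the block). Its partner subunit is encoded by Slc3a2, whose 1354 and 1795 normalized counts in Ctrl stood against 5203 and 4667 for LPS, 1954 and 1971 for Eff, and 7982 and 8360 for LPSEff.

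Gclc (ENSMUSG00000032350, chr9:77661797-77701770, plus strand) and Gclm (ENSMUSG00000028124, chr3:122039126-122065061, plus strand) encode the catalytic and the modifier subunit of glutamate-cysteine ligase, the rate-limiting enzyme of glutathione synthesis. Gclc had 232 and 370 normalized counts in Ctrl, 244 and 271 for LPS, 376 and 493 for Eff, and 1317 and 935 for LPSEff. Both LPSEff samples were thus far above the other 6, and LPS lay within the range of Ctrl. Stimulation raised Gclc 2.57-fold in efferocytic Mϕ (log2 1.36 ± 0.28, adjusted p = 0.0116, limma), and in naïve Mϕ the difference was −0.19 ± 0.28 (adjusted p = 0.693). In the stimulated state, Gclc was 4.30-fold higher in efferocytic than in naïve samples (log2 2.10 ± 0.28, adjusted p = 0.0257). In the unstimulated state, this difference was 0.55 ± 0.28 (adjusted p = 0.929, and 0.298 with the replicate block). Gclm had 320 and 519 in Ctrl, 577 and 684 for LPS, 747 and 1222 for Eff, and 1702 and 1711 for LPSEff. The groups followed each other in this order without overlap. Its efferocytosis difference was 2.34-fold without stimulation (log2 1.23 ± 0.30, adjusted p = 0.281) and 2.71-fold with it (log2 1.44 ± 0.30, adjusted p = 0.0962), which became 0.00605 and 0.00137 with the block. Its LPS/IFNγ difference was 0.62 ± 0.30 in naïve Mϕ (adjusted p = 0.176, and 0.0184 with the block), while efferocytic Mϕ had a difference of 0.84 ± 0.30 (adjusted p = 0.0877, and 0.00428 with the block).

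The balance of both subunits was followed as a ratio. Per kb of exon, the ratio of Gclc to Gclm was 0.922 and 0.905 in the Ctrl samples, 0.538 and 0.503 for LPS, 0.639 and 0.513 for Eff, and 0.982 and 0.694 for LPSEff. The ratio was highest in 1 LPSEff sample and lowest in 1 LPS sample, and both LPS samples lay below both Ctrl samples, while both Ctrl samples lay within the range of LPSEff and LPS overlapped Eff. With 2 samples against 2, no exact permutation test of such a ratio can go below p = 0.333.

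Gsr (ENSMUSG00000031584, chr8:34142551-34188192, plus strand) encodes glutathione reductase, which returns oxidized glutathione to its reduced form. It had 762 and 906 normalized counts in Ctrl, 1724 and 1437 for LPS, 1340 and 1517 for Eff, and 2452 and 2438 for LPSEff. LPS and Eff overlapped each other, both lay above Ctrl, and LPSEff lay above both. With LPS/IFNγ, Gsr rose 1.89-fold in naïve Mϕ (log2 0.92 ± 0.18, adjusted p = 0.00887, limma) and 1.71-fold in efferocytic Mϕ (log2 0.78 ± 0.18, adjusted p = 0.0205). With equal totals, these differences were 0.52 (adjusted p = 0.0606) and 0.33 (adjusted p = 0.211). The efferocytosis difference was 1.72-fold without stimulation (log2 0.78 ± 0.18, adjusted p = 0.258) and 1.55-fold with it (log2 0.64 ± 0.18, adjusted p = 0.236), and the adjusted p was 0.0231 and 0.0331 with the replicate block.

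Txnrd1 (ENSMUSG00000020250, chr10:82669785-82733546, plus strand) encodes cytosolic thioredoxin reductase, and Srxn1 (ENSMUSG00000032802, chr2:151947436-151957687, plus strand) encodes sulfiredoxin, which repairs over-oxidized peroxiredoxins. Txnrd1 had 1242 and 1722 normalized counts in Ctrl, 4841 and 4442 for LPS, 2435 and 2733 for Eff, and 9763 and 9935 for LPSEff. The 4 groups did not overlap. It rose 3.17-fold with LPS/IFNγ in naïve Mϕ (log2 1.66 ± 0.21, adjusted p = 0.00104, limma) and 3.82-fold in efferocytic Mϕ (log2 1.93 ± 0.21, adjusted p = 0.000537). The efferocytosis difference was 1.76-fold without stimulation (log2 0.82 ± 0.21, adjusted p = 0.311, and 0.0237 with the replicate block) and 2.12-fold with it (log2 1.09 ± 0.21, adjusted p = 0.0738, and 0.00347 with the block). Srxn1, whose promoter held both motifs next to the start, had 548 and 585 in Ctrl, 1811 and 1455 for LPS, 917 and 1239 for Eff, and 5392 and 4151 for LPSEff. Its groups did not overlap either, and LPSEff stood furthest apart. LPS/IFNγ raised it 2.86-fold in naïve Mϕ (log2 1.52 ± 0.23, adjusted p = 0.00231) and 4.44-fold in efferocytic Mϕ (log2 2.15 ± 0.23, adjusted p = 0.000479). Srxn1 was 2.91-fold higher in efferocytic than in naïve samples in the stimulated state (log2 1.54 ± 0.23, adjusted p = 0.0314), a call lost when only the groups of the contrast were fitted (adjusted p = 0.0964). In the unstimulated state, the difference was 1.88-fold (log2 0.91 ± 0.23, adjusted p = 0.296, and 0.0305 with the block).

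Whether LPS/IFNγ acted differently in efferocytic and naïve Mϕ was tested as the difference between both LPS/IFNγ effects. limma called none of the 10 genes and 0 of the 16309 tested (0%), with or without the block, and edgeR called 0 as well. At an unadjusted p under 0.05, 1 of the 10 passed (1.91% of genes), and 4 passed with the block (6.45% of genes). The 1 gene was Gclc, with a difference of 1.55 ± 0.40 on the log2 scale (unadjusted p = 0.00433, adjusted p = 1.00, and 0.348 with the block), which was 1.73 in the first and 1.37 in the second replicates. DESeq2 on the recovered reads called 0 without the block, and with it called Gclc (log2 1.61, adjusted p = 0.0132) among 0.265% of genes. The next differences in size were 0.68 ± 0.48 for Nqo1, 0.63 ± 0.32 for Srxn1 and −0.51 ± 0.48 for Slc7a11, and those of the other 6 lay between −0.14 and 0.27. None of these was called, which does not show that the 2 effects were alike.

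For each of the 10 genes, the 3 tested genes with the highest Pearson correlation over the 8 samples, on log2(normalized count + 1), were named as a description. All points share 8 libraries in 4 groups, so that a high correlation mainly says that 2 genes had the same order of groups. Txnrd1 was most like Abcc1 (r = 0.997), which encodes a glutathione-conjugate exporter and had 1508 and 2143 normalized counts in Ctrl, 4496 and 4238 for LPS, 2430 and 2762 for Eff, and 7268 and 7762 for LPSEff. Gsr was most like Blvrb (r = 0.993), which encodes biliverdin reductase B, and Srxn1 was most like Alas1 (r = 0.994), which encodes the first enzyme of haem synthesis. Abcc1 and Blvrb are also on the list of other NRF2 targets described below. Hmox1 was most like Grina (r = 0.989), Slc7a11 most like Ptgs2os2 (r = 0.997), Keap1 most like Dhx58os (r = 0.997), Nfe2l2 most like Gvin2 (r = 0.991) and Gclc most like Psmd5 (r = 0.974). Nqo1 was nearest to Fat1 (r = 0.995), Cavin1 (r = 0.992) and Pcdhga5 (r = 0.989), and Gclm to Map1b (r = 0.991), Grem1 (r = 0.989) and Mast4 (r = 0.989). Grem1 had 1.90 and 6.36 normalized counts in Ctrl, 6.47 and 14.2 for LPS, 15.8 and 55.8 for Eff, and 73.6 and 133 for LPSEff. Cavin1 had 133 and 150 in Ctrl, 93.1 and 158 for LPS, 255 and 570 for Eff, and 499 and 575 for LPSEff. Cavin1 and Grem1 were thus higher in each efferocytic sample than in the naïve samples of the same stimulation, as was the summed level of the fibroblast markers, although single markers such as Pdgfrb were highest in LPS. Among the 10 genes themselves, the highest correlation was that of Txnrd1 and Srxn1 (r = 0.981) and the lowest that of Nfe2l2 and Nqo1 (r = −0.065).

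Of 11 listed partners and regulators of NRF2, 10 were tested. With LPS/IFNγ, 5 rose in naïve and 6 in efferocytic Mϕ with none lower (3 higher and 1 lower, and 3 higher, with equal totals), where 12.4% and 10.7% of all tested genes were higher. With the block, 7 were higher and 1 lower (Bach1, log2 −0.42 ± 0.19 without the block) in naïve Mϕ and 6 higher in efferocytic Mϕ, against 20.5% and 19.0% of genes higher. Sqstm1, whose product p62 draws KEAP1 into autophagy, rose most by log2 fold change, from 2106 and 2697 normalized counts in Ctrl to 9500 and 11323 for LPS (log2 2.12 ± 0.21, adjusted p = 0.000360) and from 2763 and 3107 for Eff to 18071 and 16590 for LPSEff (log2 2.56 ± 0.21, adjusted p = 0.000135). The small MAF partners Maff and Mafk also rose in both, with log2 fold changes of 1.89 ± 0.22 and 1.26 ± 0.23 in naïve Mϕ and of 1.98 ± 0.22 and 1.34 ± 0.23 in efferocytic Mϕ. Syvn1, which encodes an endoplasmic reticulum ubiquitin ligase, rose by 1.21 ± 0.29 and 1.26 ± 0.29. Without stimulation, none of the 10 was called with efferocytosis by limma, edgeR or DESeq2, with or without the block, and 0 had an unadjusted p under 0.05. With stimulation, limma and edgeR called 0 and DESeq2 called 1 (2.26% of genes), and 3 had an unadjusted p under 0.05 (10.3% of genes). With the block, limma called 3 higher, against 4.32% of genes: Sqstm1 (log2 0.74 ± 0.21, adjusted p = 0.0199), Mafg (0.67 ± 0.26, 0.0199) and Bach1 (0.61 ± 0.19, 0.0408), a repressor of Hmox1.

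Other targets of NRF2 were described from a list of 32 genes, of which 27 were tested. With LPS/IFNγ, 7 rose and 4 fell in naïve Mϕ (5 and 6 with equal totals), and 6 rose and 4 fell in efferocytic Mϕ (8 and 7, and 10 and 4, with the block). Of all tested genes, 12.4% were higher and 11.6% lower in naïve Mϕ, and 10.7% and 8.95% in efferocytic Mϕ. With the block, these shares were 20.5% and 20.7%, and 19.0% and 18.0%. The 27 genes had median log2 fold changes of 0.14 in naïve and 0.39 in efferocytic Mϕ, with 16 and 21 above 0. Slc3a2 (log2 1.66 ± 0.19 and 2.06 ± 0.19), Prdx1 (1.62 ± 0.25 and 1.94 ± 0.25), Txn1 (1.13 ± 0.18 and 1.09 ± 0.18) and Abcc1 (1.28 ± 0.21 and 1.54 ± 0.21) were among those that rose in both. The 4 that fell in both were Tkt, Blvra, Cbr1 and Nqo2, with log2 fold changes from −0.69 to −1.27 in naïve Mϕ. In Eff vs Ctrl, limma and edgeR called 0 of the 27 and DESeq2 called 3 (1.35% of genes), and 11 had an unadjusted p under 0.05 (6.13% of genes). With the block, limma called 4 higher (Prdx1, Ftl1, Fth1 and Blvrb) and 1 lower (Ephx1), against 1.70% and 0.975% of genes. The median log2 fold change of the 27 was 0.53, and 21 were above 0. In LPSEff vs LPS, 3 rose, against 0.730% of genes higher. These were Slc48a1, a haem transporter (log2 1.42 ± 0.20, adjusted p = 0.0273), Gss, glutathione synthetase (1.42 ± 0.23, adjusted p = 0.0414), and Prdx1, peroxiredoxin 1 (1.48 ± 0.25, adjusted p = 0.0446). Gss had 124 and 163 normalized counts in Ctrl, 158 and 157 for LPS, 138 and 187 for Eff, and 435 and 412 for LPSEff. Both LPSEff samples thus lay above the 6 others, as they did for Gclc, the preceding enzyme of glutathione synthesis. With the block, 13 of the 27 were higher and none lower, against 4.32% and 2.65% of genes. The median log2 fold change of the 27 was 0.73, and 23 were above 0. When only the groups of the contrast were fitted, 0 of the 27 were called. Prdx1, Txn1, Ftl1 and Fth1 have near-identical copies in the genome that can share reads, so that their levels are uncertain.

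**Figure D5:**
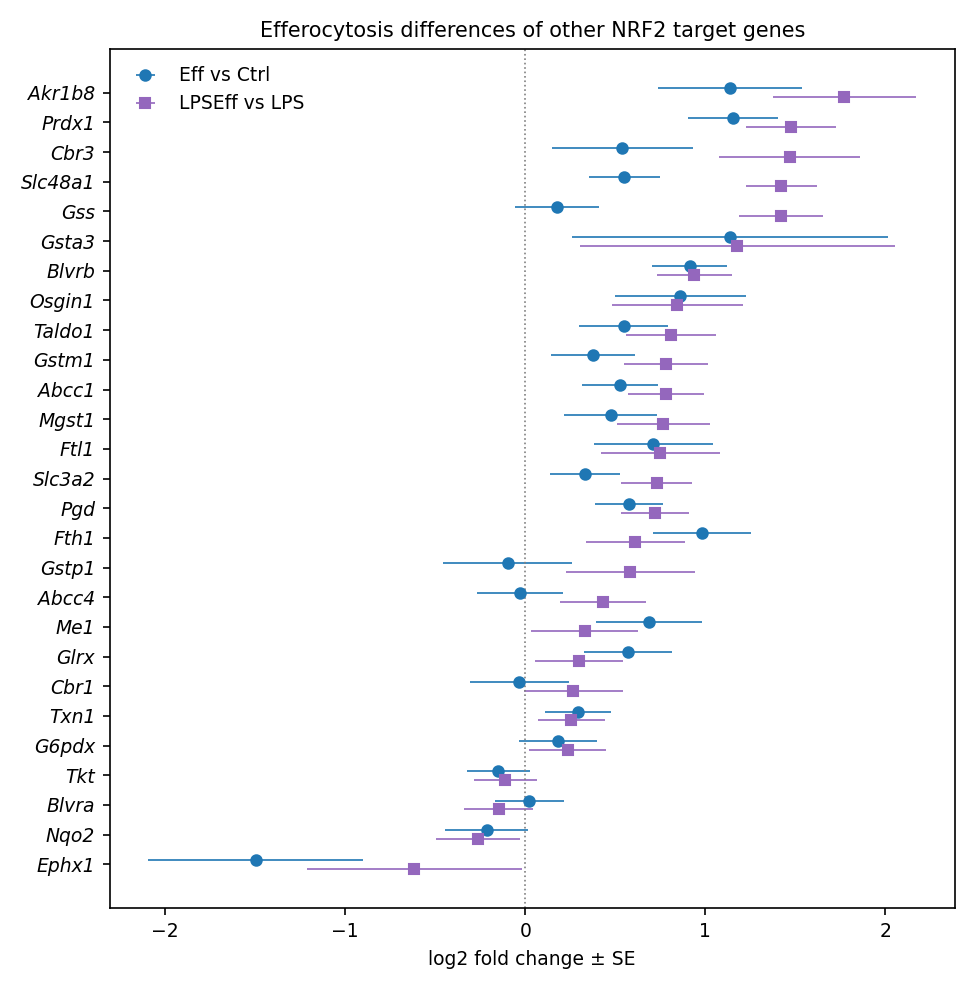
Log2 fold changes with standard errors (limma, n = 2 per group) of the 27 tested other NRF2 targets with efferocytosis, without stimulation (blue circles, Eff vs Ctrl) and with it (purple squares, LPSEff vs LPS), ordered by the second. In LPSEff vs LPS, 23 of the 27 lie above 0, and Ephx1 has the lowest value in both contrasts.

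Of 20 tested genes of antioxidant systems outside the NRF2 lists, 3 rose and 5 fell with LPS/IFNγ in naïve Mϕ (2 and 9 with equal totals), and 2 rose and 7 fell in efferocytic Mϕ (1 and 9). The falls in both include Txnip (log2 −2.01 ± 0.46 and −2.27 ± 0.46), which encodes a thioredoxin-interacting protein and not an antioxidant enzyme. Of all tested genes, 12.4% were higher and 11.6% lower in naïve Mϕ, and 10.7% and 8.95% in efferocytic Mϕ. With the block, 3 of the 20 were higher and 10 lower in naïve Mϕ (20.5% and 20.7% of genes), and 5 and 8 in efferocytic Mϕ (19.0% and 18.0%). Sod2, mitochondrial superoxide dismutase, rose by a log2 fold change of 3.27 ± 0.23 and 3.65 ± 0.23, and Prdx5 by 2.01 ± 0.38 and 1.63 ± 0.38. Txn2, mitochondrial thioredoxin, fell in both, with log2 fold changes of −0.99 ± 0.18 in naïve and −0.78 ± 0.18 in efferocytic Mϕ. Gpx1, a cytosolic glutathione peroxidase, also fell in both (−0.75 ± 0.21 and −0.95 ± 0.21). With efferocytosis, limma and edgeR called 0 of the 20 in either state. DESeq2 called 1 without and 2 with stimulation (1.35% and 2.26% of genes), and 2 and 4 had an unadjusted p under 0.05 (6.13% and 10.3% of genes). With the block, 2 rose without and 3 with stimulation, against 1.70% and 4.32% of genes. These were Prdx6 and Sod3 in both, and Cat with stimulation. Sod3 lay near the floor in Ctrl, at 3.81 and 5.20 normalized counts, where 3 reads correspond to 5.71 and 1.73. Of 9 genes of oxidant production, Nos2, Cybb and Ncf1 rose in naïve Mϕ, and Nos2 and Cybb in efferocytic Mϕ (4 and 5 higher with the block). Nos2, the inducible nitric oxide synthase, went from 45.7 and 31.8 normalized counts in Ctrl to 37734 and 24545 for LPS and from 23.7 and 26.8 for Eff to 50428 and 39259 for LPSEff. With efferocytosis, limma, edgeR and DESeq2 called 0 of the 9 in either state, and 1 had an unadjusted p under 0.05 in each (6.13% and 10.3% of genes). With the block, Cybb was lower without stimulation (log2 −0.83 ± 0.27) and Ncf1 with it (−0.64 ± 0.23), against 0.975% and 2.65% of genes lower.

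ATF4 and its targets were listed because Slc7a11 also belongs to them. Of 9 tested, 1 rose with LPS/IFNγ in naïve Mϕ (Atf3, log2 1.45 ± 0.34) and 2 in efferocytic Mϕ (Atf3, 2.25 ± 0.34, and Ddit4, 2.76 ± 0.74), and 2 and 3 rose with the block. Of all tested genes, 12.4% were higher in naïve and 10.7% in efferocytic Mϕ (20.5% and 19.0% with the block). The counts in naïve Mϕ thus lay near the share of all genes. With efferocytosis, limma, edgeR and DESeq2 called 0 of the 9 with or without the block, 0 had an unadjusted p under 0.05, and the median log2 fold changes were −0.39 without and 0.20 with stimulation. With equal totals, Atf3 was not called in naïve Mϕ and 1 gene of the list was lower.

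The marker lists moved as follows. Of all tested genes, 12.4% were higher with LPS/IFNγ in naïve and 10.7% in efferocytic Mϕ (20.5% and 19.0% with the block). With efferocytosis, 0.215% were higher without and 0.730% with stimulation (1.70% and 4.32% with the block). Among the 12 macrophage markers, Adgre1 and Mertk rose with LPS/IFNγ in both kinds of Mϕ, Fcgr1 rose in efferocytic Mϕ, and 0 were called with efferocytosis in either state by limma, edgeR or DESeq2, with or without the block (0 at an unadjusted p under 0.05). Of 15 tested fibroblast markers, 6 rose with efferocytosis in each state, among them Col1a1 with 7.62 and 12.1 normalized counts in Ctrl, 193 and 284 for Eff, 16.8 and 38.6 for LPS, and 606 and 537 for LPSEff. With the block, 11 rose without and 9 with stimulation. With LPS/IFNγ in naïve Mϕ, Fbn1, Pdgfrb and Col5a1 rose, and 9 in naïve and 6 in efferocytic Mϕ were higher with the block. Of 6 tested dendritic cell markers, Ccr7 and Xcr1 rose in naïve and Ccr7 in efferocytic Mϕ with LPS/IFNγ (5 and 4 with the block). With efferocytosis, limma, edgeR and DESeq2 called 0 of the 6 in either state, 1 without and 2 with stimulation had an unadjusted p under 0.05, and with the block Itgax and Dpp4 were lower without stimulation (0.975% of genes lower) and Flt3 and Ccr7 with it (2.65% of genes). The summed level of the 8 listed was 4551 to 9693 normalized counts in Ctrl, 2685 to 6085 for Eff, 10663 to 24111 for LPS and 8345 to 12940 for LPSEff, so that the ranges of naïve and efferocytic samples overlapped in both states, and Cd209a was at 0 in both LPSEff samples. Of 6 tested granulocyte markers, S100a8 was higher in Eff than in Ctrl (665 and 699 against 308 and 269 normalized counts), and with the block it was also higher in LPSEff than in LPS. Among these 6 markers, 3 had log2 fold changes above 0 and 3 below 0 in Eff vs Ctrl (median 0.15). In LPSEff vs LPS, 2 were above 0 and 4 below 0 (median −0.29). S100a8 and Camp rose with LPS/IFNγ in naïve Mϕ and Camp in efferocytic Mϕ (5 and 3 higher with the block). The part of these cells in the levels of the 10 genes was not tested.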

How the data were processed

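Total RNA of 8 BMDM samples (4 groups, n = 2) was sequenced. Per the labels and the methods, the authors depleted rRNA and used cutadapt against adapters, Bowtie2 against leftover rRNA, STAR for mapping to mm39 and HTSeq in default mode for gene counts. The versions and the annotation release are not given in the sources used here. The deposited values are a signal: the normalized count of a gene (reads divided by a size factor, as DESeq2 makes it). All values of a sample (100%) are whole multiples of 1 step (tolerance 0.01 reads), which gave the recovered reads, 3481288 to 12020918 per sample, and the size factors, 0.525 to 1.73. Limits of 3 reads cover counting error only. No PCR duplicates could be told apart. Of 55359 genes, 54749 were named from GENCODE release 39 for mouse, which also gave positions and exonic lengths.

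Tests used limma-trend (limma 3.58.1 in R 4.3.3) on log2(normalized count + 1) of the 16309 genes whose mean reached 10, with the 4 group means in 1 fit of all 8 samples. Samples with the same replicate number in their titles deviated together. Across genes, the deviations from the group means correlated with r from 0.404 to 0.595 over all 6 pairs of groups. The numbers were therefore treated as pairing the samples, which rests on the data and not on the labels, and the fit with the replicate number as a block is printed where it changes a call or, for the lists, a count of calls. An exact permutation test of 2 against 2 samples cannot go below p = 0.333. Alternatives were pseudocounts of 0.5 and 5, a gene filter at a mean over 0 or from 50 upwards, a fit of the compared groups alone, the block, equal totals, quantile normalization, count tests on the recovered reads (edgeR 4.0.16, DESeq2 1.42.0), and leaving out each sample. edgeR and DESeq2 with the block were added after the data had been seen. The fits were tested on simulated data. The 10 genes and all lists were chosen with earlier results of these data known. From each other list, up to 4 called genes with the lowest adjusted p in a contrast were named, and otherwise those with the highest mean. Genes called with the block, those that fell, Gss, Cavin1 and Grem1 in full, and genes named in a count of 5 or fewer were picked after their values had been seen. Ddit3, with 2 identifiers, was left out. Upstream bases that belong to an exon were removed from the sequences shown.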

Additional observations from a re-analysis of the deposited data

How the results depend on the processing

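Of the values of single genes of the 10 in the 5 contrasts over all alternatives, 871 kept their direction and side of the threshold, 54 passed it, 49 fell short of it and 16 changed sign. Counts of the 10 genes called moved by over 1.5 times as follows. In Eff vs Ctrl (0 called), the count was 1 with only the groups of the contrast, 7 with the replicate block (7 each by edgeR and DESeq2 with the block) and 5 by DESeq2. In LPSEff vs LPS (3 called), it was 1, 8 (8 each) and 6. In LPSEff vs Eff (8 called), it was 5 with quantile normalization, and in the difference between both LPS/IFNγ effects (0 called) it was 1 by DESeq2 with the block. Leaving out single samples gave 4 to 7 called in LPS vs Ctrl, 5 to 8 in LPSEff vs Eff, 0 to 3 in LPSEff vs LPS, 0 in Eff vs Ctrl and 0 for the difference. The lone sample then left in a group was assumed to vary like the other groups. The causes were not tested. Beyond the calls named with their values, the block changed no other call of the 10 genes.

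Sign changes affected values that were not called. The difference between both effects became −0.21 for Hmox1 and −0.039 for Gclm with quantile normalization. With single samples left out, this difference ranged from −0.47 to 0.75 for Hmox1, from −0.14 to 0.57 for Gclm, from −0.032 to 0.47 for Nfe2l2 and from −0.29 to 0.055 for Keap1. In LPSEff vs LPS, it ranged from −0.38 to 0.12 for Nfe2l2 and from −0.21 to 0.14 for Keap1, and in LPS vs Ctrl from −0.44 to 0.16 for Nqo1 and from −0.52 to 0.15 for Gclc. Over all tested genes, 3910 were called in LPS vs Ctrl (6717 with the block), 3213 in LPSEff vs Eff (6033), 126 in LPSEff vs LPS (1137) and 41 in Eff vs Ctrl (436). DESeq2 called 207 and 368 in both efferocytosis contrasts, edgeR 14 in Eff vs Ctrl, and equal totals gave 5578 in LPSEff vs Eff. A gene filter at a mean over 0 or from 50 upwards gave 79 and 20 in Eff vs Ctrl, and a fit of the compared groups alone gave 9 and 66. Depth limits Nqo1 most, which rested on 43 reads in 1 Ctrl sample.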
